A study of Saccharomyces cerevisiae and Saccharomyces paradoxus and Saccharomyces mikatae with 10 samples.

Results

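The strain Y9 of Saccharomyces cerevisiae, labelled as coming from a distillery, was compared with the 5 other S. cerevisiae strains of the study. It was chosen by its label and is 1 of 10 libraries in the series. The other strains were YPS606 and DBVPG1788, both labelled wild, DBVPG6040 from fruit juice, BC187 from wine and the clinical strain YJM145. The study asked whether expression profiles of yeast strains follow descent or environment. All strains were grown alike, for 24 hours at 30 °C in a sap-like medium holding 1% sucrose, 0.5% fructose and 0.5% glucose, thinned to an optical density of 0.1, and collected at 0.5. Y9 had 1 library and 1 value per gene, and the YPS606 values join 2 libraries, so each strain stands for itself without a replicate. Environment and strain cannot be told apart for Y9, which is the study's sole distillery strain. Ploidy and mating type are not given in the labels.

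Of 4325 genes in the deposited table, 4315 had a value in all 6 strains, and 4267 with a mean of at least 1 RPKM (reads scaled by gene length in kilobases and by the library total) were tested. Differences are log2(RPKM + 1) in Y9 minus the mean of the 5 other strains, a scale that understates the change of low genes. A gene is called outside the range when Y9 lies above or below all 5 other strains. The implied library total was 57.9 M (M, mega) in Y9 and 58.4 to 153 M in the others, and CCW12, a cell wall protein gene, was the top gene in all 6. For a median gene the 95% counting interval of the Y9 value reached 3.86% to either side, and the standard deviation (SD) among the 5 other strains was 20.7% of their mean. The spread between strains, which also holds the variation of single cultures and libraries, was thus wider than the counting error for such a gene.

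Yeast adjusts to its surroundings through regulons, sets of genes that share a regulator. The paired factors Msn2 and Msn4 bind short elements of the letters AGGGG before many genes used under stress and in slow growth. Met4, brought to DNA by Cbf1 or by Met31 and Met32, switches on the genes that reduce sulfate and build methionine and cysteine. Pho4 switches on genes of phosphate supply when phosphate runs short, and Zap1 switches on genes of zinc supply when zinc does.

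A small number of genes differed in Y9 by large amounts. Limma's moderated test, Benjamini-Hochberg adjusted over all genes, called 2 genes higher in Y9 and none lower, which is 0.0469% of those tested. At an unadjusted p under 0.05, limma gave 208 of the 4267 genes, of which 130 were higher and 78 lower. That total is near what a threshold of 0.05 passes by chance among so many genes. Each of the other strains, set against its fellows, gave 64 to 594. The called genes were YGR153W, a gene of unknown function, and YCT1, which encodes a cysteine transporter. Y9 lay above the range of the 5 others in 794 genes (18.6%) and below it in 593 (13.9%). That order depended on scaling and on the strains compared. The counts were 754 above and 791 below after median centring, 750 and 814 after quantile normalisation, and 844 and 909 without YPS606. In those settings 18.5%, 19.1% and 21.3% of all genes lay below. If all 6 strains were alike, each would lie above its fellows in a share of 0.167 of genes, and below in as many. By at least 1 log2 unit Y9 lay above in 85 genes (1.99%) and below in 34 (0.797%), and the second count was 66 without YPS606.

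**Figure D1:**
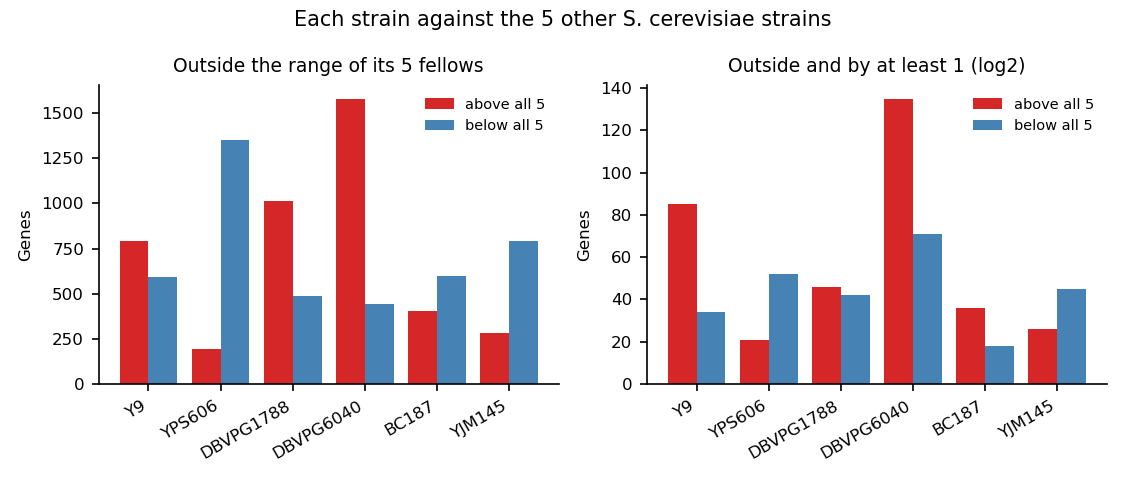
Number of genes (y axis) in which each strain lies above (red) or below (blue) all 5 of its fellow strains, at any distance (left) and by at least 1 log2 unit from their mean (right). Y9 has 85 genes above by that margin and 34 below, against 135 and 71 in DBVPG6040.

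Each of the other strains was set against its 5 fellows in the same way. At any distance, DBVPG6040 lay above in 1580 genes and DBVPG1788 in 1014, both more than Y9, and the other 3 strains in 192 to 402. By at least 1 log2 unit, DBVPG6040 lay above its fellows in 135 genes, DBVPG1788 in 46, BC187 in 36, YJM145 in 26 and YPS606 in 21. By the same margin DBVPG6040 lay below in 71, YPS606 in 52, YJM145 in 45, DBVPG1788 in 42 and BC187 in 18. The median difference over all genes was 0.02 in Y9, while the median absolute difference was 0.22. In DBVPG6040 the median was 0.18 and in YPS606 it was -0.19. Limma called at most 1 gene in any of these strains against its fellows.

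**Figure D2:**
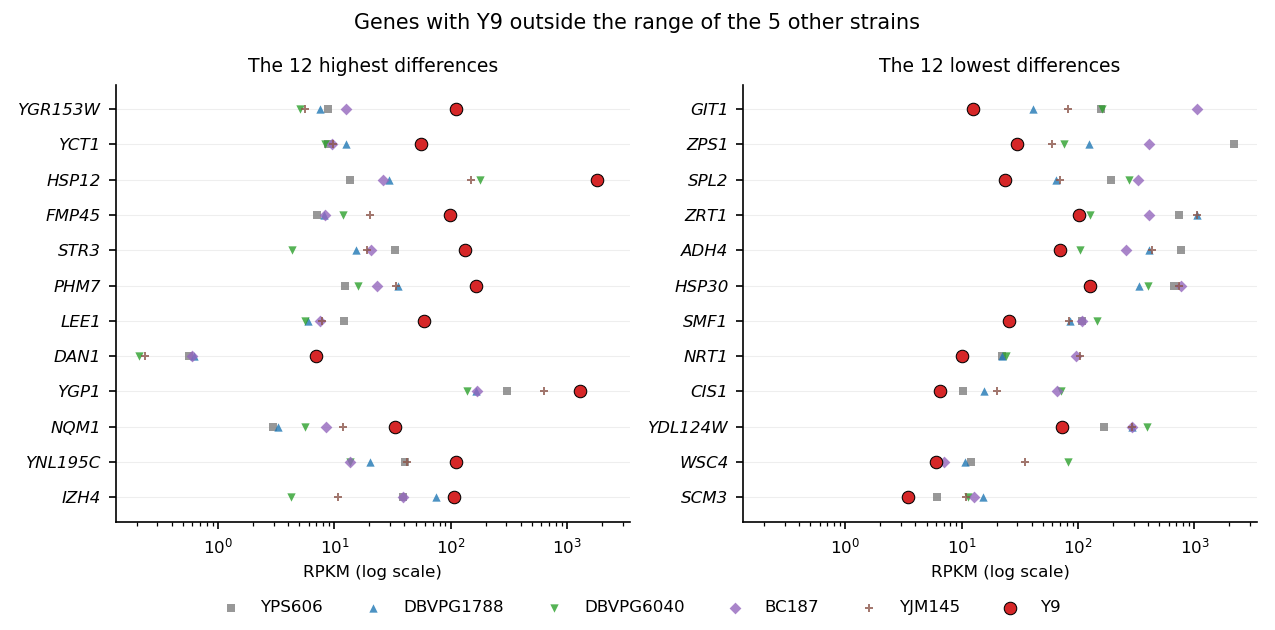
RPKM on a log scale (x axis) of genes with Y9 outside the range of the others, the top 12 by difference on the left and the bottom 12 on the right. The red circle is Y9 and the smaller symbols are the 5 other strains. HSP12 is at 1792 RPKM in Y9 and at 178.5 or less elsewhere.

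YGR153W was at 111.8 RPKM in Y9, 8.73 in YPS606, 7.48 in DBVPG1788, 5.03 in DBVPG6040, 12.6 in BC187 and 5.59 in YJM145. The 5 other strains had a mean of 7.88 ± 3.01 (SD, n = 5), and Y9 was 14.2 times that mean and 8.90 times the highest of them. The log2 difference was 3.73 with a standard error of 0.42 and an adjusted p of 0.0300 by limma. The gene lies at chrVII:796092-796745 in the R64 assembly of the reference strain S288C, close to CYS4, a gene of cysteine synthesis at chrVII:798543-800066 that was also highest in Y9. YCT1 was at 55.4 RPKM in Y9, 8.76 in YPS606, 12.5 in DBVPG1788, 8.34 in DBVPG6040, 9.60 in BC187 and 9.69 in YJM145. The others lay close together at 9.77 ± 1.61 (SD, n = 5), and Y9 was 5.67 times their mean, with a log2 difference of 2.40 and an adjusted p of 0.0300 by limma. The YGR153W call was lost without DBVPG1788, DBVPG6040 or YJM145, where limma gave adjusted p of 0.0900, 0.0725 and 0.0537. The YCT1 call was lost without DBVPG1788, DBVPG6040, BC187 or YJM145, with limma's adjusted p from 0.0704 to 0.134.

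Genes of the general stress response were often highest in Y9. Of 32 tested members of this list, 19 lay above the range of the other strains (59.4%, against 18.6% over all genes) and 3 below it. By at least 1 log2 unit 12 lay above, of the 85 such genes in all. The median difference of the list was 0.67, against 0.02 over all genes. The summed level of its members was 8333 RPKM in Y9, 5357 in YJM145, 4303 in YPS606, 3785 in BC187, 3497 in DBVPG6040 and 2980 in DBVPG1788. Much of the Y9 sum came from HSP12, YGP1 and SPI1, which are described below. HSP12 and YGP1 were at 1792 and 1289 RPKM in Y9 and at 149.4 and 638.1 in YJM145, so the sum describes such top genes more than the list. None of the list's genes passed limma's threshold, though 13 were higher and 1 lower at an unadjusted p under 0.05. Over all 4267 genes those counts were 130 and 78. The list holds some of the genes of highest difference that earlier results had shown.

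HSP12, which encodes a small protein that stabilises membranes under stress, had the largest difference of the list. Its level was 1792 RPKM in Y9, 13.6 in YPS606, 29.7 in DBVPG1788, 178.5 in DBVPG6040, 26.2 in BC187 and 149.4 in YJM145. Y9 was 10.04 times the highest other strain, and the others themselves spread widely, with YPS606 lowest. The log2 difference was 5.15 with a standard error of 1.22 and an adjusted p of 0.411 by limma. A stretch upstream of the HSP12 start codon, at chrVI:106816-107075 on the plus strand of R64, is shown because it holds 5 copies of the stress response element, printed in capitals as AGGGG or as its reverse complement CCCCT.
HSP12: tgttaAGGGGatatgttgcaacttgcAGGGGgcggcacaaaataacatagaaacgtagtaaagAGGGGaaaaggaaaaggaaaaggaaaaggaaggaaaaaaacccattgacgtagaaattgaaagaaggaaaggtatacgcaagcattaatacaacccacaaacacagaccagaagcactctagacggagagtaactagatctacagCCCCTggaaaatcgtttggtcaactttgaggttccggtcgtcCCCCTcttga

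FMP45, a gene for a membrane protein of the eisosomes (plasma membrane furrows), was at 98.5 RPKM in Y9, 7.13 in YPS606, 8.14 in DBVPG1788, 11.8 in DBVPG6040, 8.31 in BC187 and 20.3 in YJM145. Y9 was 4.85 times the highest other strain, and limma's adjusted p was 0.129, or 0.0292 without YJM145. The gene next to it, HBT1, named after its values were known, was also highest in Y9, at 27.2 RPKM against 7.47 to 11.8. YGP1, which encodes a secreted glycoprotein made when nutrients run low, was at 1289 RPKM in Y9 and at 138.7 to 638.1 elsewhere. NQM1, a transaldolase gene, was at 33.5 RPKM against 2.98 to 11.8, and RTN2, a reticulon gene of the endoplasmic reticulum, at 260.4 against 51.7 to 120.2. In YGP1, NQM1 and RTN2 the second highest strain was YJM145.

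The same direction was seen in members named after their values were known. SPI1, a cell wall protein gene, was at 1747 RPKM in Y9 and 396.1 to 966.3 elsewhere. TFS1, which encodes an inhibitor of a vacuolar protease, was at 553.3 RPKM against 164.8 to 325.6. RTC3, outside the list, was at 1430 RPKM against 192.6 to 514.7. The genes of the regulators were split. MSN2 was at 65.7 RPKM in Y9 and 43.7 to 83.3 in the others, and MSN4 at 101.1 against 85.3 to 260.6, both inside the range. USV1, a stress-responsive regulator gene, was at 371.4 RPKM in Y9 and 60.6 to 234.3 in the others, and GIS1, a regulator of genes used on entry into stationary phase, at 88.8 against 30.9 to 55.1, both above the range. PNC1, a nicotinamidase gene, lay below the range at 784.2 RPKM against 923.7 to 1452, and GRE3, an aldose reductase gene, at 84.4 against 102.1 to 171.5.

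The stress response element AGGGG, searched on both strands in the 500 bases before the start codon, was found in 25 of 32 genes of the stress list (78.1%) and in 34.0% of all 4235 genes with a sequence. It was present before 48 of the 84 genes with a sequence that lay above the range by at least 1 log2 unit (57.1%) and before 12 of the 34 that lay below by that margin (35.3%). A match is a run of letters in the reference strain S288C and not in Y9 itself. The stress list gathers genes of the Msn2 and Msn4 type, so its share describes the list and not Y9, and members of it are among the 84. YCT1 carried the element as well, and a stretch upstream of its start codon, at chrXII:29774-29883 on the plus strand, holds 2 matches in capitals. YGR153W had no match to any of the 4 motifs searched.
YCT1: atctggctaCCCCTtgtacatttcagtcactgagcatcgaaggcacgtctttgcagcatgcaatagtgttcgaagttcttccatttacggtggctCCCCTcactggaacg

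Not all genes of protective proteins were high in Y9. Of 20 tested heat shock and chaperone genes, 1 lay above the range (5%), HSP12, and 6 lay below it (30%), with a list median of -0.26. Over all genes the shares were 18.6% and 13.9%. The list's median deviation was -0.22 in Y9 and -0.24 in YPS606. HSP30, which encodes a membrane protein that damps the plasma membrane proton pump, was at 127.7 RPKM in Y9, 662.5 in YPS606, 335.6 in DBVPG1788, 401.9 in DBVPG6040, 764.6 in BC187 and 733.6 in YJM145. The lowest other strain was 2.63 times Y9, the log2 difference was -2.10 and limma's adjusted p was 0.369. HSP60, the mitochondrial chaperonin gene, was at 179.4 RPKM against 264.5 to 297.6, and AHA1 and STI1, genes of cochaperones of Hsp90, were at 67.8 and 67.2 RPKM against 83.1 to 168.6 and 71.8 to 151.1. HSP26, a small heat shock protein gene, was at 43.1 RPKM in Y9 and inside the range of 25.1 to 183.0.

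The reserve carbohydrates trehalose and glycogen accumulate in slowly growing yeast. Of 18 tested genes of their metabolism, 5 lay above the range (27.8%, against 18.6% over all genes) and 2 below (11.1%, against 13.9%), with a median difference of 0.59. These shares are not far from those over all genes, and 9 lay above the range without YPS606, where 19.8% of all genes did. PGM2, a phosphoglucomutase gene, was at 1044 RPKM in Y9, 823.8 in YPS606, 259.5 in DBVPG1788, 253.8 in DBVPG6040, 362.6 in BC187 and 666.2 in YJM145. YPS606 and YJM145 thus came nearest to Y9. The same order held for the summed level of the list, 4327 RPKM in Y9, 4118 in YPS606, 3909 in YJM145 and 1886 to 2131 in the other 3. TPS2, the trehalose phosphatase gene, was at 479.2 RPKM in Y9 against 184.0 to 363.2, and GDB1, the glycogen debranching enzyme gene, at 73.0 against 20.2 to 51.5. TPS1, the trehalose synthase gene, was at 578.2 RPKM and inside the range of 311.0 to 719.5. PGM1, another phosphoglucomutase gene, named after its values were known, lay below the range at 62.9 RPKM against 67.6 to 96.0.

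**Figure D3:**
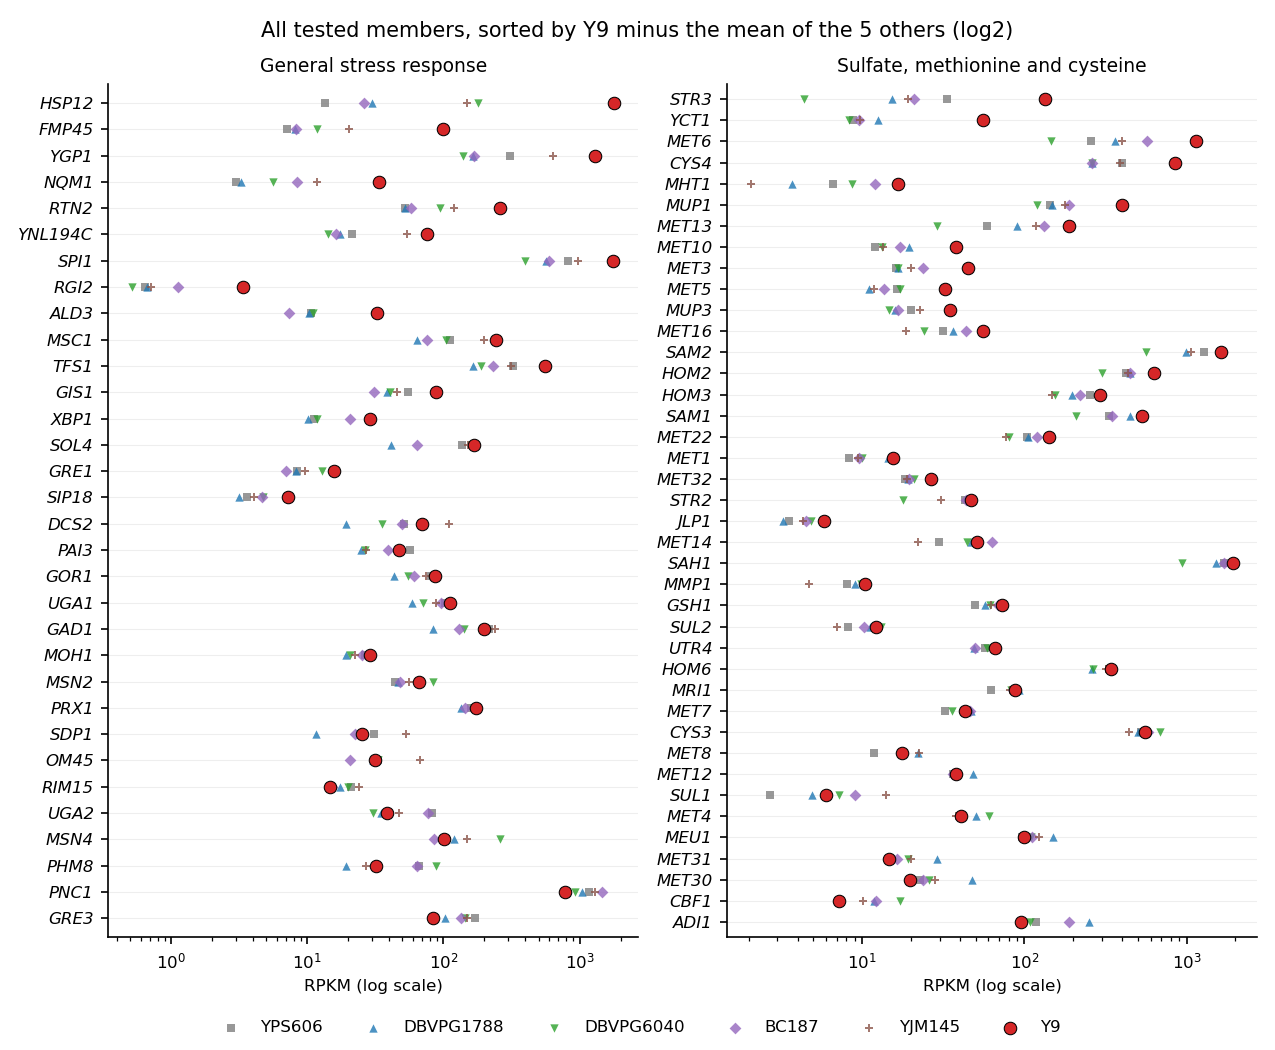
RPKM on a log scale (x axis) of every tested gene of the general stress list (left, 32 genes) and of the sulfate, methionine and cysteine list (right, 40 genes), sorted from the highest Y9 difference down. Red circles are Y9 and the smaller symbols the 5 other strains. Y9 lies above all other strains in 19 genes on the left and in 22 on the right.

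Genes of sulfur metabolism were often highest in Y9 as well. Of 40 tested genes for sulfate assimilation, methionine and cysteine, 22 lay above the range in Y9 (55.0%, against 18.6% over all genes), 10 of them by at least 1 log2 unit. Below it lay 2 (5%, against 13.9%), or 5 without YPS606, where 21.3% of all genes lay below. The median difference was 0.43, and YCT1 was the single member that limma called. The summed level was 9810 RPKM in Y9, 6618 in YPS606, 6466 in DBVPG1788, 4615 in DBVPG6040, 7602 in BC187 and 6902 in YJM145. Y9 was thus highest and DBVPG6040 lowest.

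STR3, the gene of cystathionine beta-lyase on the way from cysteine to methionine, was at 133.6 RPKM in Y9, 33.5 in YPS606, 15.2 in DBVPG1788, 4.35 in DBVPG6040, 20.7 in BC187 and 19.1 in YJM145. Y9 was 3.99 times the highest other strain, the log2 difference was 3.01 and limma's adjusted p was 0.496. MET6, the gene of the enzyme that makes methionine from homocysteine, was at 1148 RPKM in Y9, 256.6 in YPS606, 360.0 in DBVPG1788, 145.1 in DBVPG6040, 570.9 in BC187 and 399.0 in YJM145. CYS4, the gene of the enzyme that draws homocysteine toward cysteine, was at 843.6 RPKM in Y9, 398.7 in YPS606, 261.5 in DBVPG1788, 261.1 in DBVPG6040, 261.8 in BC187 and 387.5 in YJM145. In both genes Y9 was more than any other strain, by 2.01 times in MET6 and by 2.12 times in CYS4, and neither passed limma's threshold, with adjusted p of 0.817 and 0.409. MHT1, a methyltransferase gene for recycling S-methylmethionine, was at 16.5 RPKM against 2.07 to 11.9.

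Members named after their values were known filled in the pathway. In sulfate reduction, MET3 (ATP sulfurylase) was at 45.2 RPKM in Y9 and 16.2 to 23.6 elsewhere, MET16 (reductase of activated sulfate) at 55.7 against 18.5 to 43.9, MET5 at 32.4 against 11.1 to 17.2 and MET10 at 38.1 against 11.9 to 19.3. MET5 and MET10 encode the subunits of sulfite reductase. MUP1, the high-affinity methionine permease gene, was at 402.0 RPKM in Y9 and 119.5 to 188.8 in the others. Their regulators again differed less, with MET4 at 40.5 RPKM inside the range of 37.8 to 60.5, MET32 above it at 26.7 against 18.4 to 21.0, and MET30, which encodes the ubiquitin ligase subunit that restrains Met4, below it at 19.8 against 22.9 to 47.3. CYS3, the cystathionine gamma-lyase gene, was at 556.2 RPKM and inside the range of 443.8 to 681.5, and SAM1, an S-adenosylmethionine synthetase gene, at 532.2 against 208.9 to 533.4. MXR1, a methionine sulfoxide reductase gene of the oxidative stress defence list and outside the sulfur list, was at 124.1 RPKM in Y9 against 27.0 to 45.7.

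The letters CACGTG, which Cbf1 binds and Pho4 binds too, stood in the 500 bases before 22 of the 40 sulfur genes (55.0%) and before 6.45% of all 4235 genes. The letters AACTGTG, bound by Met31 and Met32, stood before 15 of the 40 (37.5%) and before 5.69% of all genes. The list gathers genes of the kind these factors act on, so both shares describe the list and not Y9. Both runs of letters were searched on both strands, and CACGTG reads the same on each. The following stretches of R64 carry them in capitals (AACTGTG or its reverse complement CACAGTT in the first 3, CACGTG in the last 2) and belong to sulfur genes that were highest in Y9. They lie at chrV:342418-342482 on the minus strand for MET6, chrVII:798318-798362 on the plus strand for CYS4, chrXII:17774-17823 on the minus strand for MHT1, chrX:455849-455893 on the plus strand for MET3 and chrX:683571-683630 on the minus strand for MET5.
MET6: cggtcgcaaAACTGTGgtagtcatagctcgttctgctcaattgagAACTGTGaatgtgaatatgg
CYS4: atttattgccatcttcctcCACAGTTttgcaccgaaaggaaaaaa
MHT1: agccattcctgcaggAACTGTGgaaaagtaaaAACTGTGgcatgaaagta
MET3: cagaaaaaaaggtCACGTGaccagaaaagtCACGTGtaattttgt
MET5: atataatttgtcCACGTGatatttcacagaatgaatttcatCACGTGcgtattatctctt

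The lower end of the Y9 profile held some genes of phosphate and zinc supply. Of 25 tested genes of the phosphate starvation regulon, 9 lay below the range (36%, against 13.9% over all genes) and 4 above, with a median difference of -0.41. The list as a whole was as low in other strains, with a summed level of 3536 RPKM in Y9, 3592 in YJM145, 3650 in DBVPG1788, 5038 in YPS606, 6924 in DBVPG6040 and 7121 in BC187. Its median deviation from the mean of all 6 strains was -0.34 in Y9 and -0.49 in DBVPG1788. Of 18 tested genes of copper and zinc homeostasis, 7 lay below (38.9%) and 3 above (16.7%, against 18.6% over all genes), with a median of -0.10. No gene of either list passed limma's threshold. At an unadjusted p under 0.05 limma gave 3 phosphate genes higher and 3 lower, and 3 copper and zinc genes lower. Over all 4267 genes limma gave 130 higher and 78 lower.

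GIT1, the permease gene for glycerophosphoinositol, a phosphate source, had the lowest difference of all genes tested. It was at 12.6 RPKM in Y9, 158.0 in YPS606, 41.0 in DBVPG1788, 160.5 in DBVPG6040, 1043 in BC187 and 81.7 in YJM145. The lowest other strain was 3.26 times Y9, the log2 difference was -3.53 with a standard error of 1.31, and limma's adjusted p was 0.985. SPL2, which encodes a regulator of low-affinity phosphate uptake, was at 23.5 RPKM in Y9, 192.2 in YPS606, 65.0 in DBVPG1788, 275.4 in DBVPG6040, 325.3 in BC187 and 69.2 in YJM145. DBVPG1788 and YJM145 came nearest to Y9 in both genes. PHO8, the vacuolar alkaline phosphatase gene, was at 70.0 RPKM against 100.5 to 207.1.

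The high-affinity phosphate transporter gene PHO84 did not follow, at 613.3 RPKM in Y9 and inside the range of 445.3 to 1598. PHM7, a phosphate-regulated gene of unknown function, went the other way. It was at 164.1 RPKM in Y9, 12.4 in YPS606, 35.3 in DBVPG1788, 15.9 in DBVPG6040, 23.0 in BC187 and 33.5 in YJM145, with a log2 difference of 2.83 and an adjusted p of 0.237 by limma. VTC5, a gene of the vacuolar polyphosphate polymerase complex, was also above the range, at 34.9 RPKM against 13.7 to 25.1. CACGTG stood in the 500 bases before 14 of the 25 phosphate genes (56.0%), a share that describes the regulon and not Y9. The stretch before SPL2, at chrVIII:375441-375475 on the minus strand, is shown with its match in capitals.
SPL2: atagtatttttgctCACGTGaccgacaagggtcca

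ZRT1, the high-affinity zinc transporter gene, was at 102.1 RPKM in Y9, 730.8 in YPS606, 1057 in DBVPG1788, 126.6 in DBVPG6040, 403.6 in BC187 and 1058 in YJM145. DBVPG6040 was close to Y9, at 1.24 times its level, while the other 4 strains were well above. ADH4, an alcohol dehydrogenase gene used under low zinc that lies next to ZRT1, was at 69.8 RPKM in Y9, 767.2 in YPS606, 408.7 in DBVPG1788, 102.9 in DBVPG6040, 258.5 in BC187 and 433.0 in YJM145, the same split of strains. ZPS1, a gene induced by zinc shortage, was at 29.6 RPKM against 59.7 to 2171. Their log2 differences were -2.37, -2.20 and -2.84, and limma's adjusted p was 0.994 for ZRT1 and ADH4 and 0.999 for ZPS1. ZAP1, the gene of the zinc-responsive activator, was at 12.6 RPKM against 17.5 to 32.7, below the range as well.

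IZH4, a gene for a membrane protein of zinc homeostasis, lay above the range at 107.2 RPKM in Y9, 38.9 in YPS606, 75.01 in DBVPG1788, 4.25 in DBVPG6040, 38.7 in BC187 and 10.8 in YJM145. The zinc genes of Y9 thus did not all lie on one side of the others. The Zap1 letters ACCTTNAAGGT stood before 8 of all 4235 genes (0.189%) and before 2 of the 18 genes of the list. The stretch before ZRT1, at chrVII:20763-20797 on the plus strand, is shown with the match in capitals.
ZRT1: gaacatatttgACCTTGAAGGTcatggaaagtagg

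**Figure D4:**
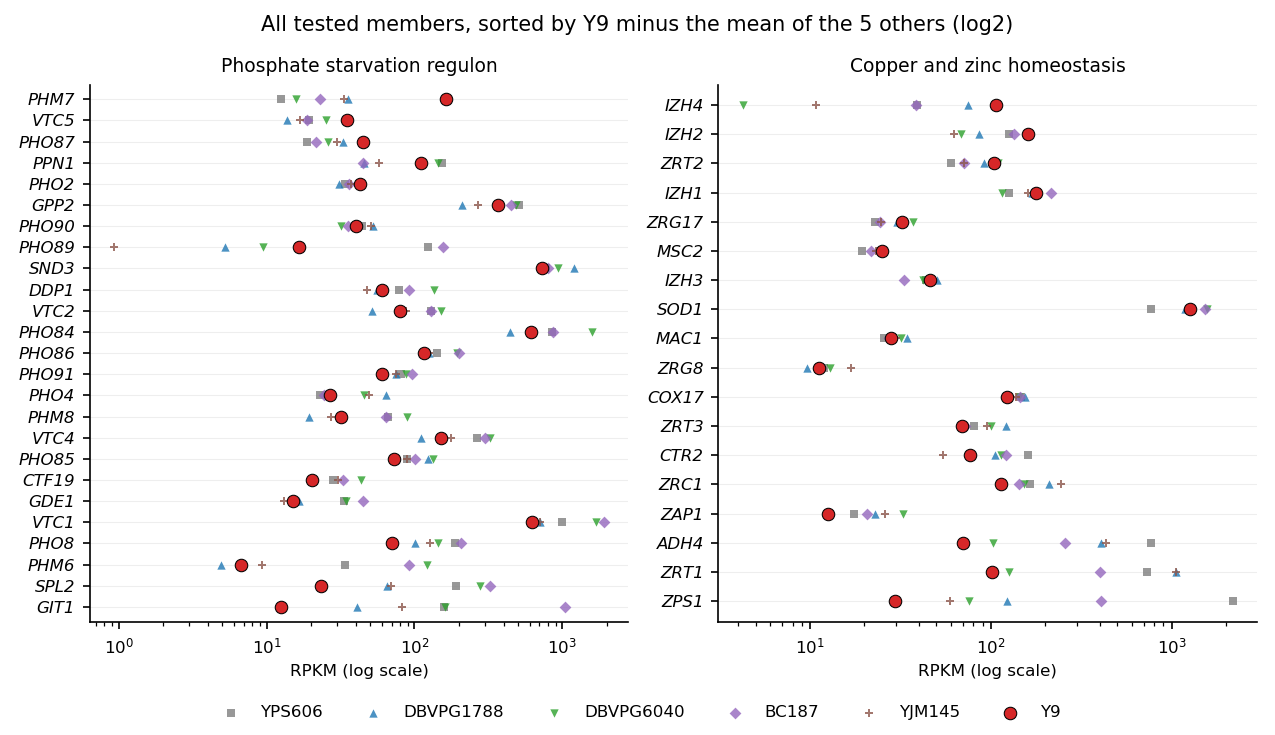
RPKM on a log scale (x axis) of every tested gene of the phosphate starvation regulon (left, 25 genes) and of copper and zinc homeostasis (right, 18 genes), sorted from the highest Y9 difference down. Red circles are Y9 and the smaller symbols the 5 other strains. Y9 lies below all others in 9 genes on the left and in 7 on the right.

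Of the other low genes, SMF1, a manganese and divalent metal transporter gene, was at 25.6 RPKM in Y9, 107.1 in YPS606, 84.8 in DBVPG1788, 145.7 in DBVPG6040, 109.0 in BC187 and 83.3 in YJM145. The 5 other strains lay close together and each was at least 3.25 times Y9, with a limma adjusted p of 0.158. YDL124W, a reductase gene, was at 72.9 RPKM against 166.6 to 393.0. NRT1, a nicotinamide riboside transporter gene, was at 9.99 RPKM against 22.3 to 104.7, and SCM3, the chaperone gene of the centromeric histone, at 3.44 against 6.09 to 15.1. CIS1 and WSC4, the latter a gene of a cell wall sensor family, were at 6.54 and 5.99 RPKM, below ranges of 10.2 to 72.01 and 7.03 to 81.5.

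Carbon source genes included SUC2, which encodes the invertase that splits sucrose, the main sugar of the medium. It was at 248.5 RPKM in Y9, 90.5 in YPS606, 91.5 in DBVPG1788, 53.0 in DBVPG6040, 32.6 in BC187 and 96.5 in YJM145. Y9 was 2.58 times the highest other strain, with a log2 difference of 1.87 and an adjusted p of 0.642 by limma. SUC2 is the 1 gene of 15 listed for sucrose and maltose use that could be tested, and strains of this species can carry further SUC genes whose reads cannot be told apart from it here. The 17 tested genes of hexose kinases and glycolysis had 1 above and 1 below the range (5.88% each, under the shares over all genes). HXT2, a hexose transporter gene, was at 1551 RPKM in Y9 against 329.3 to 1547, just above DBVPG1788.

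Genes of peroxisomes and of the fatty acid breakdown they carry out differed in part. Of 42 tested members, 16 lay above the range (38.1%, against 18.6% over all genes) and 3 below, with a median of 0.15. Without YPS606, 7 lay below it, in a setting where 21.3% of all genes did. The list's summed level was not highest in Y9, at 1323 RPKM against 1333 in DBVPG1788, 1430 in DBVPG6040 and 1133 to 1251 in the other 3. POX1, the gene of the first enzyme of the pathway, was at 15.2 RPKM in Y9, 1.96 in YPS606, 2.98 in DBVPG1788, 4.72 in DBVPG6040, 2.32 in BC187 and 3.15 in YJM145. ADR1, an activator gene of peroxisomal and ethanol-use genes, was at 34.5 RPKM against 7.59 to 14.8, and CAT2, a carnitine acetyltransferase gene, at 19.4 against 3.85 to 8.30. Limma's adjusted p was 0.264, 0.362 and 0.496 for these 3 genes. Of 35 tested genes of the respiratory chain and ATP synthase, 11 lay above the range (31.4%) and 2 below (5.71%, against 13.9% over all genes). The summed level of these 35 was 13542 RPKM in Y9, 15009 in DBVPG6040 and 9558 to 11595 in the others. The count was 24 above without DBVPG6040, where 28.2% of all genes lay above, and 7 after quantile normalisation, where 17.6% did. CYC7, the gene of a cytochrome c made in low oxygen and under stress, was at 147.2 RPKM against 24.3 to 97.7, and QCR6, of the cytochrome bc1 complex, lay below at 125.9 against 183.3 to 388.6.

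Several lists of amino acid genes had more members above the range than below. Over all genes, 18.6% lay above and 13.9% below. Of 10 tested genes for leucine, isoleucine and valine, 6 lay above the range (60%) and none below, with a median of 0.60. BAT1, the mitochondrial branched-chain aminotransferase gene, was at 640.7 RPKM in Y9, 312.5 in YPS606, 271.4 in DBVPG1788, 173.6 in DBVPG6040, 382.6 in BC187 and 246.8 in YJM145. LEU1, of leucine synthesis, was at 228.3 RPKM against 63.6 to 192.4. Of 17 arginine and proline genes, 7 lay above (41.2%) and none below, though the list's median deviation was 0.26 in both Y9 and DBVPG1788. Of 24 genes for glutamate, aspartate, serine, glycine and threonine, 2 lay above (8.33%) and 2 below. PUT1, the gene of proline oxidase, was at 121.1 RPKM in Y9, 28.2 in YPS606, 22.0 in DBVPG1788, 17.5 in DBVPG6040, 60.0 in BC187 and 29.2 in YJM145, so that Y9 was 2.02 times the highest other strain, BC187. Of 16 genes under nitrogen catabolite repression, which shuts off the use of poor nitrogen sources, 7 lay above (43.8%) and none below. GAP1, the general amino acid permease gene, was at 21.4 RPKM against 7.34 to 10.9. Limma's adjusted p was 0.774 for BAT1, 0.496 for PUT1 and 0.496 for GAP1.

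Genes of aroma and alcohol formation are of interest in a strain from a distillery. Of 9 tested genes for esters, fusel alcohols and phenolic aroma, 5 lay above the range (55.6%, against 18.6% over all genes) and 2 below (22.2%, against 13.9%). This list shares members with the amino acid lists. ARO8, above the range, is also on the lists for lysine and for aromatic amino acids, so the share above is not independent of theirs. SFA1, an alcohol and formaldehyde dehydrogenase gene, was at 593.0 RPKM in Y9, 63.4 in YPS606, 243.5 in DBVPG1788, 126.8 in DBVPG6040, 349.2 in BC187 and 58.6 in YJM145, with an adjusted p of 0.994 by limma. ATF1, an alcohol acetyltransferase gene for acetate esters, was at 40.1 RPKM against 14.3 to 38.1, and so near to DBVPG1788, the highest of the others. FDC1, of the decarboxylation that turns ferulic acid into a phenolic off-flavour, lay below the range at 15.9 RPKM against 28.4 to 68.7. ADH5, an alcohol dehydrogenase gene of the list for pyruvate to ethanol and acetate, was at 406.6 RPKM against 86.0 to 365.5. Of the 13 tested genes of that list, 5 lay above the range (38.5%, against 18.6% over all genes) and 1 below (7.69%, against 13.9%). The gene below was ADH4, another alcohol dehydrogenase gene, at 69.8 RPKM against 102.9 to 767.2.

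Among genes of protein synthesis, the tested ones of cytosolic ribosomal proteins lay mostly to one side, by small amounts. The deposited table held 38 genes of this kind, and the counts cover no others. Of the 36 tested, 23 lay above the range in Y9 (63.9%, against 18.6% over all genes), none below and none by 1 log2 unit. Of these 36, 35 had a difference above 0, with a median of 0.34. The summed level was 66372 RPKM in Y9, 40633 in YPS606, 61772 in DBVPG1788, 47145 in DBVPG6040, 54506 in BC187 and 61714 in YJM145, so DBVPG1788 and YJM145 came close. After quantile normalisation 8 of the 36 lay above the range, in a setting where 17.6% of all genes did, so the lean was far smaller there. RPL38, of the large subunit, was at 2621 RPKM against 1400 to 2038. Most ribosomal protein genes come in near-identical pairs, and how shared reads were divided is not given in the sources used here. Of 12 tested aminoacyl-tRNA synthetase genes, which charge transfer RNAs, 5 lay above (41.7%, against 18.6% over all genes) and none below. Other lists of the machinery did not lean that way. Of 90 ribosome biogenesis genes 9 lay above (10%, a share under that over all genes) and none below. Of 30 translation factor genes 6 lay above (20%) and 1 below (3.33%), with a median of 0.01. Of 25 genes of RNA polymerase I and III none lay above and 3 below (12%).

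Mitochondrial ribosomal protein genes were more often below the range than above it. Of 62 tested, 24 lay below the range (38.7%, against 13.9% over all genes) and 1 above (1.61%, against 18.6%), with a median of -0.16. Without DBVPG6040, 9 lay above it, in a setting where 28.2% of all genes did. The list's median deviation from the mean of all 6 strains was -0.13 in Y9 and -0.15 in BC187. IMG1, of the large mitochondrial subunit, was at 82.8 RPKM in Y9, 116.5 in YPS606, 186.1 in DBVPG1788, 173.6 in DBVPG6040, 110.6 in BC187 and 171.9 in YJM145, so BC187 and YPS606 came nearest to Y9. Of 36 tested proteasome genes, 10 lay below the range (27.8%) and 2 above (5.56%), with a median of -0.30. YJM145 was lower than Y9 on this list, with a summed level of 4064 RPKM against 4267. Without YJM145 the count below was 22. PRE6, a core particle subunit gene, was at 87.8 RPKM in Y9 against 118.8 to 228.6.

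**Figure D5:**
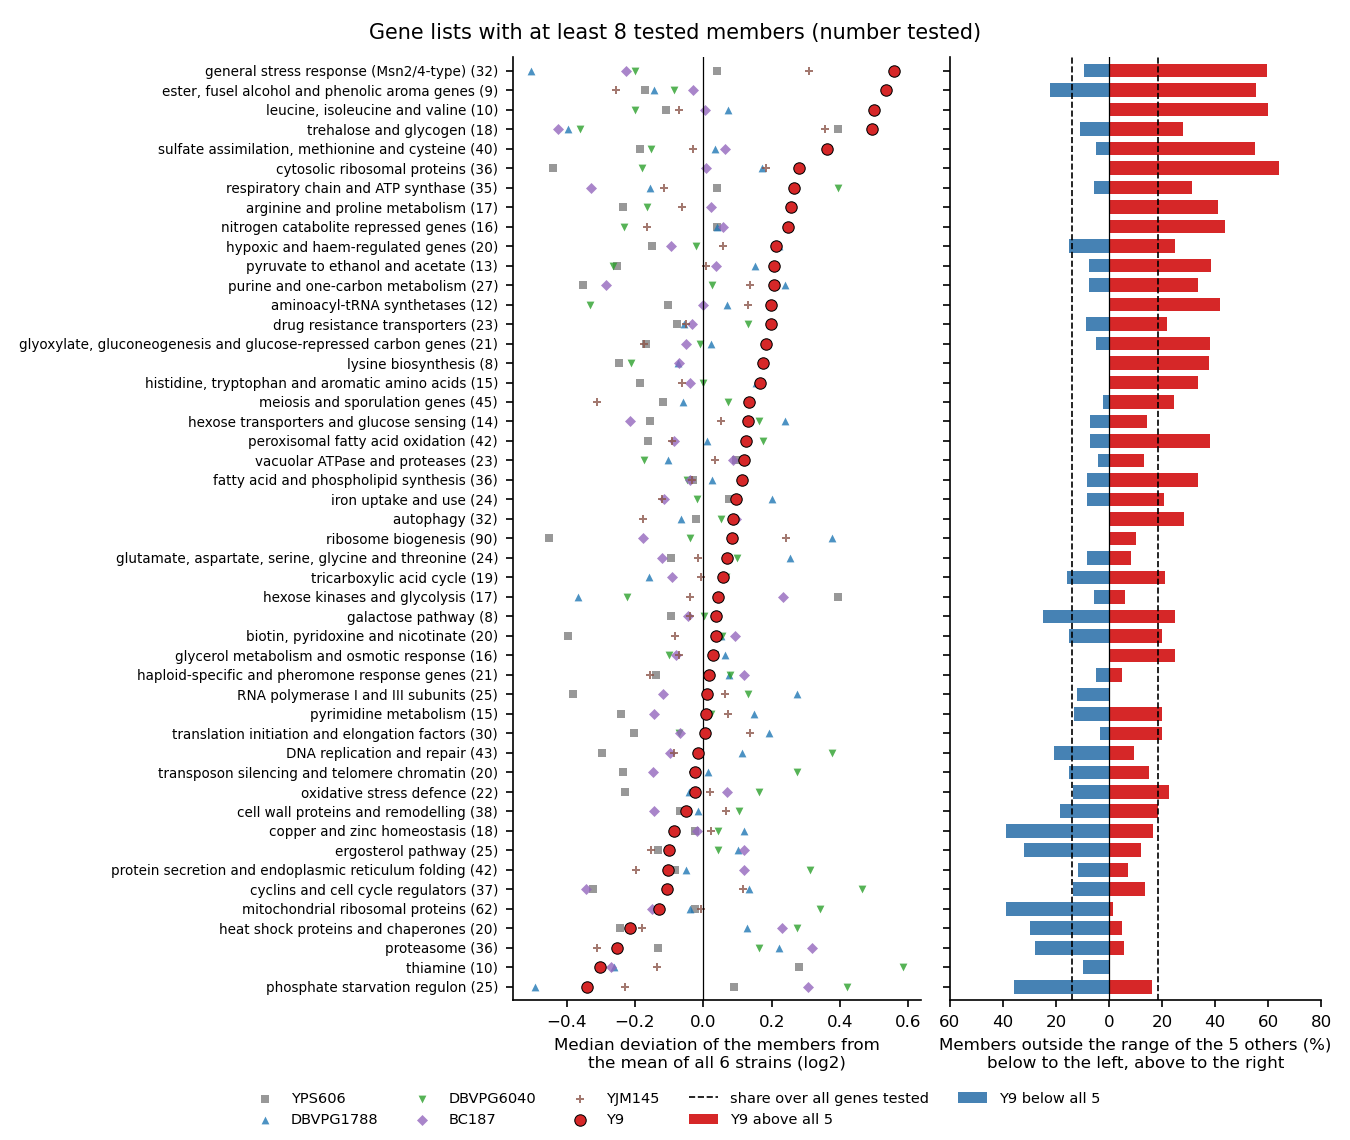
Gene lists with at least 8 tested members (number in brackets), sorted by the median Y9 difference. Left, median deviation of a list's members from the mean of all 6 strains (x axis, log2), with Y9 as the red circle and the 5 other strains as smaller symbols. Right, percent of members with Y9 above all 5 others (red) or below them (blue), with dashed lines at the shares over all genes, 18.6% above and 13.9% below.

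DAN1, a mannoprotein gene of the cell wall used without oxygen, was low in all strains and highest in Y9. It was at 7.0 RPKM in Y9, 0.57 in YPS606, 0.62 in DBVPG1788, 0.21 in DBVPG6040, 0.60 in BC187 and 0.24 in YJM145, with a log2 difference of 2.48 and an adjusted p of 0.158 by limma. LEE1, a zinc finger gene of unknown role, was at 59.2 RPKM in Y9 and 5.56 to 12.1 elsewhere, with an adjusted p of 0.0643 by limma and of 0.0259 without YPS606. YNL195C, of unknown function, was at 109.8 RPKM against 13.5 to 42.3, and its neighbour YNL194C, of the stress list, at 75.1 against 14.2 to 54.2. YHB1, the gene of the nitric oxide dioxygenase flavohaemoglobin, named after its values were known, had a difference of 4.33 that did not set Y9 apart. It was at 1673 RPKM in Y9, 1468 in DBVPG1788 and 2318 in BC187, and at 3.53 in YPS606, 27.0 in DBVPG6040 and 8.16 in YJM145.

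The genes highest in Y9 by at least 1 log2 unit had no single strain in second place. BC187 came second in 23 of the 85, YJM145 in 21, YPS606 in 18, DBVPG1788 in 13 and DBVPG6040 in 10. Over all 4267 genes, DBVPG6040 was the highest of the 5 others in 42.1% and YPS606 in 7.85%. By chromosome, the median difference of Y9 lay between -0.05 and 0.07 except on chromosome I, where it was -0.30 over 47 genes, and -0.09 without DBVPG6040. DBVPG6040 itself had medians of 0.80 on chromosome I and 0.74 on chromosome XI.

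Summed markers of mating type and sporulation lay inside the range of the other strains in Y9. The 6 a-cell markers summed to 19.2 RPKM in Y9 and 16.9 to 35.4 in the others, and the 3 measured alpha-cell markers to 34.8 against 31.3 to 46.2. The 5 measured haploid markers summed to 25.4 RPKM against 22.3 to 31.3, and the 5 sporulation markers to 28.9 against 18.3 to 38.2. None of these markers was at 0 in Y9. Of the mating and haploid markers, AGA2, STE6, BAR1, MF(ALPHA)2 and RME1 each lay below the range and STE18 above it, none by 1 log2 unit. Of 45 tested meiosis and sporulation genes, 11 lay above the range (24.4%, against 18.6% over all genes), 4 of them by at least 1 log2 unit. Below it lay 1 (2.22%, against 13.9%). Across 4235 genes the Y9 difference had a Spearman's rho of -0.30 with GC content and 0.13 with gene length, and in DBVPG1788 the rho with GC content was 0.29. After removal of each strain's trend on both, limma called the same 2 genes, and Y9 lay above the range by at least 1 log2 unit in 86 genes and below it in 21.

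Each comparison sets 1 culture of Y9 against 5 strains, and limma assumes that Y9 varies as they do. An exact permutation test of 1 strain against 5 cannot go below a two-sided p of 0.333. The spread between cultures of Y9 is unknown.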

How the data were processed

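Polyadenylated RNA was fragmented, copied with random primers and sequenced per the labels' protocols, with inserts of about 250 bp and 15 PCR cycles. The kit as described does not mark strand, so antisense reads cannot be told apart. The submitters' processing notes name cutadapt, TopHat, Cufflinks and R64, and their roles are not given in the sources used here. The deposited values carry no unit in labels or headers and are treated as RPKM made by the authors, since 93.1% of 58 low values of Y9, times gene length, were whole multiples of 1 step (tolerance 0.05). That step gave the implied totals. Of 4325 deposited genes, 4284 matched R64, which supplied symbols, positions and sequence, and 41 did not. Fits used log2(RPKM + 1), genes with a mean of at least 1, and limma 3.58.1 in R 4.3.3 (lmFit and eBayes with trend, two-sided, Benjamini-Hochberg, threshold 0.05), with the other 5 strains as the spread. This code was tested on simulated data. Counting intervals are 95% and cover counting error only. YPS606 counts once. The labels give no batch.

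The comparison and the 55 gene lists were chosen with earlier results of these data known, so lists are described by counts and medians without a test. Named genes are the 12 highest and 12 lowest differences outside the range and up to 5 per list described, and others are said to be named after their values were known. Alternatives covered pseudocounts, filters, scaling, a correction for GC content and length, other eBayes settings, chromosomes I and XI left out, and each strain left out.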

Additional observations from a re-analysis of the deposited data

Results flagged for a closer look

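Of 83 values examined in the 5 other strains, 1 had a strain that stood far from its fellows by Dixon's test, where chance gives about 4.15. For MET30, the gene of the ubiquitin ligase subunit that restrains Met4, DBVPG1788 was at 47.3 RPKM and the other 4 at 22.9 to 28.0. The gap to the nearest strain was 0.721 of the whole range on the log2 scale, above the critical value of 0.71. Y9, at 19.8 RPKM, lay below all 5.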

How the results depend on the processing

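No paired analysis was possible because Y9 has a single library, and the replicate numbers of strains only name samples and come from no shared label. The number of genes that limma called in Y9 was 2, and it was 5 with a pseudocount of 5, 4 without the trend in eBayes, 1 after median centring, 0 after quantile normalisation (where 274 genes had an unadjusted p under 0.05), and between 0 and 4 when 1 of the other strains was left out. It was 0 without DBVPG1788 or DBVPG6040, where the unadjusted counts were 171 and 224, 1 without BC187, 1 without YJM145 and 4 without YPS606. YGR153W had an adjusted p by limma of 0.0700 after median centring and 0.110 after quantile normalisation, and YCT1 of 0.0826 after the latter. Limma called FMP45 without YJM145, LEE1 without YPS606, and FMP45, LEE1 and DAN1 with a pseudocount of 5. The number of genes below the range by at least 1 log2 unit was 34, and it was 21 with a pseudocount of 5, 21 after removal of the trend on GC content and gene length, and 30 to 66 when 1 strain was left out. CYS3, at a difference of 0.04, turned to -0.0945 after quantile normalisation and lay between -0.0304, without YJM145, and 0.124, without DBVPG6040, when 1 strain was left out. The causes were not tested. The counts above the range by at least 1 log2 unit stayed between 62 and 100, and all other named genes kept their direction under every alternative run. With 1 library of Y9, depth limits little: 49 genes had under 100 implied reads in it, and the counting interval does not cover the spread between cultures.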
